A study of Mus musculus with 7 samples.

Results

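The 4F-mini-oocytes compared here are oocyte-like cells that were made from mouse embryonic stem cells (mESCs) without any ovarian somatic cells, and they were sequenced at day 7 and at day 21 of induction. Of the 7 RNA-seq libraries of the series, 5 hold 4F-mini-oocytes, with n = 2 at day 7 and n = 3 at day 21. All of them came from 4F-mESCs made from BVSC H18, a female line of hybrid 129/C57BL6 strain, in which 4 oocyte transcription factors, Nobox, Figla, Tbpl2 and Lhx8, were expressed as fusions to a destabilization domain that the ligand Shield1 keeps stable. The cells of both days were plated on laminin in S10 medium with SCF, the kinase inhibitor Y-27632 and Shield1, and Shield1 was left out of fresh medium from day 12, so the last days of day 21 cells passed without fresh Shield1. A day 7 sample held 1000 cells and a day 21 sample 10 cells, so that the number of cells and the day of induction cannot be told apart in any difference described here. How the cells of a pool were chosen, and whether replicates came from separate cultures, is not given in the sources used here, and p-values measure only the spread between these samples. The remaining 2 libraries are 8F-mini-oocytes of day 21. They are in neither group compared. They enter through the choice of genes tested, the shared estimate of the spread between replicates and the scalings taken over all libraries.

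Genes were described by name. Of 55364 genes listed, 33578 carry names of predicted genes, microRNAs, RIKEN clones, small nucleolar RNAs or pseudogenes and were left out, and 11085 of the others did not reach a TPM of 5 (a length-scaled share of all transcripts) in 2 of the 5 libraries. The remaining 10701 named genes are described here, and 10472 of them code for proteins. Of these 10701, 8246 reached the minimum on both days, 915 through the day 7 libraries alone, 1341 through the day 21 libraries alone and 199 with 1 library of each day. A gene that reached it on 1 day alone was admitted by its level on that day. Counts over a list are therefore descriptions and no test of the list. This holds also for lists where the number of genes admitted through 1 day alone is not given.

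Mouse oocytes grow for weeks while arrested in meiotic prophase. During this growth they secrete a glycoprotein coat, the zona pellucida, store mRNA and protein for the embryo in an inactive form, exchange small molecules with granulosa cells through gap junctions, and build the subcortical maternal complex, a protein assembly under the egg membrane. Figla and Nobox are needed for the expression of many oocyte genes and Lhx8 for oocyte differentiation. Tbpl2 replaces the TATA-binding protein of other cells in the transcription of growing oocytes.

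The libraries held an estimated 9506135 and 12317535 reads on genes at day 7 and 16628000, 14692016 and 14612696 at day 21, computed from the smallest steps in the TPM and the exon lengths. With these depths, 3 reads on a gene of 1 kb are worth between 0.575 and 0.764 TPM, a limit that covers counting error only. Across the named genes, the log2(TPM + 1) of the day 7 pair had a Pearson correlation of 0.923, the 3 pairs of day 21 libraries between 0.947 and 0.952, and the 6 pairs across days between 0.637 and 0.676. Over all genes listed, the same pairs gave 0.905, 0.949 to 0.952, and 0.828 to 0.867. The named genes include those admitted by their level on 1 day alone. These correlations are over genes of libraries amplified with the same kit and describe the libraries, not the conditions. The 10 most abundant genes took 28.5% and 31.8% of all TPM at day 7 and between 10.2% and 11.5% at day 21. Genes under 300 exonic bases took 26.2% and 25.5% at day 7 and between 8.64% and 9.83% at day 21. TPM are shares of a fixed total, so the other genes gained share at day 21, and the median named gene differed by 0.38 on the log2 scale. With median-of-ratios rescaling this median was 0.05, and with limma voom on recovered reads it was -0.14. Each difference below can be read against these medians.

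Between day 7 and day 21, limma on log2(TPM + 1) with Benjamini-Hochberg adjustment called 5516 of 21780 tested genes higher at day 21 (25.3%) and 3331 lower (15.3%) at FDR 0.05. Among the 10701 named genes, 4054 were higher (37.9%) and 1580 lower (14.8%). After median-of-ratios rescaling the named genes split into 2977 higher and 2363 lower, and with voom into 2371 higher and 3233 lower, so the balance of the directions depends on the scaling. A call is written below as held where it passed FDR 0.05 in the same direction in the fit and in each of 5 other scalings or tests in which the gene was tested, namely median-of-ratios, quantile normalization, rescaling over genes of at least 300 exonic bases, voom, and voom with median-of-ratios library sizes. Of the named genes, 2273 rises (21.2%) and 1547 falls (14.5%) held, and of all 21780 genes tested 3118 rises and 2974 falls. All 5 lowered the median difference of the named genes, from 0.377 to between -0.139 and 0.096. Holding was therefore a stricter demand on a rise than on a fall, and a held fall adds little to its call. The TPM of the 2 days did not overlap in 7469 named genes (69.8%) and in 12348 of the 21780 tested genes. Differences were large in both directions, with 883 called rises of at least 2 and 591 called falls of at least 2 on the log2 scale. Over all genes tested these counts were 1668 and 1567. Among the 8246 named genes that reached the minimum on both days they were 427 and 131. Genes admitted through day 21 alone gave 456 of the 883 rises, and genes admitted through day 7 alone 460 of the 591 falls. In lists of genes described below, a measured gene is one of the 10701, and the counts of each list are to be read against 37.9% higher and 14.8% lower. Lists can share genes, as Peg10 is in those of imprinted genes and trophoblast markers, so counts of different lists are not separate results. The shares of higher genes in the lists of Kit, TGF-beta and FGF signalling, oxidative phosphorylation and cholesterol synthesis were below 37.9%, and those of piRNA genes, translation factors, nuclear pores and the TCA cycle were near it. The lists of piRNA genes, meiotic prophase, Kit signalling, TGF-beta receptors, cholesterol synthesis, heat shock proteins, hypoxia and nuclear pores had medians above 0 in TPM that turned below 0 with voom, so that their directions rest on the scaling.

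**Figure D1:**
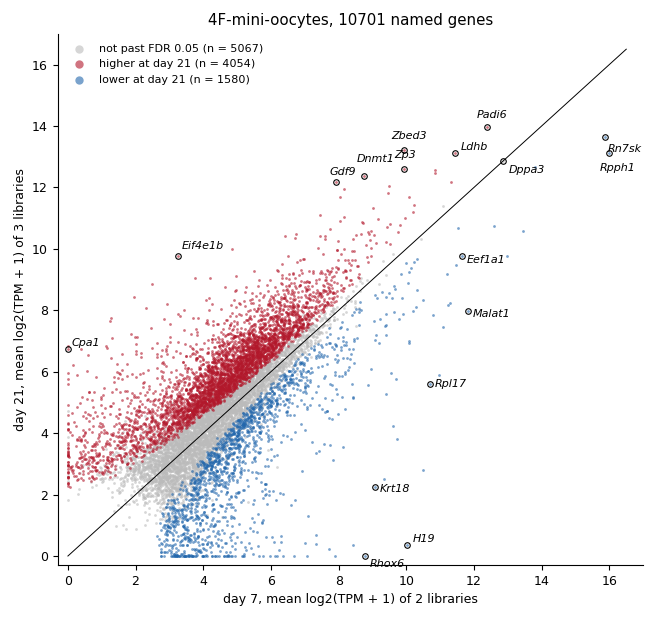
Level of each named gene of 4F-mini-oocytes at day 7 (horizontal, mean log2(TPM + 1) of 2 libraries) and day 21 (vertical, mean of 3 libraries), with 4054 genes higher at FDR 0.05 in red, 1580 lower in blue and 5067 not past it in grey. The line marks equal levels, and circled genes are named in the text, with Gdf9, Zp3 and Eif4e1b far above it, H19, Rhox6 and Krt18 far below it and Dppa3 on it.

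Gdf9, Zp3 and Dnmt1 rose and Krt18 and H19 fell, each without overlap between the days. Levels are given below for replicates 1 and 2 of day 7 against replicates 1, 2 and 3 of day 21. Gdf9 (mm10, chromosome 11, 53431023 to 53437904), a growth factor of the TGF-beta family that oocytes send to granulosa cells, was at 196 and 303 TPM against 4975, 3952 and 4912 TPM, a difference in log2(TPM + 1) of 4.23 (SE 0.21, adjusted p = 6.45e-05). Zp3 (chromosome 5, 135980099 to 135988624), which codes for a zona pellucida glycoprotein, was at 800.5 and 1207 TPM against 6011, 5689.5 and 6871 TPM, a difference of 2.65 (SE 0.21, adjusted p = 0.000214). All day 21 values of both genes lay several times above both day 7 values. Dnmt1 (chromosome 9, 20907209 to 20959888), the maintenance DNA methyltransferase that oocytes hold in large stores, was at 346 and 527 TPM against 5905, 4894 and 5322 TPM, a difference of 3.65 (SE 0.20, adjusted p = 8.21e-05). Krt18 (chromosome 15, 102028180 to 102032027), a keratin of simple epithelia, was at 436 and 658 TPM against 1.19, 8.81 and 3.82 TPM, a difference of -6.84 (SE 0.65, adjusted p = 0.000419). H19 (chromosome 7, 142575529 to 142578143), an imprinted long noncoding RNA, was at 1039 and 1054 TPM against 0, 0 and 1.11 TPM, and its difference was -9.67 (SE 0.45, adjusted p = 5.91e-05). With day 21 levels this close to 0, the fitted size depends on the pseudocount. In all 3 rises replicate 2 of day 7 was above replicate 1, a gap far smaller than the distance to day 21.

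Among the 15 largest rises were a translation pair, germ cell regulators and several secreted or metabolic genes that are not usual oocyte markers. Eif4e1b, an oocyte form of the cap-binding protein eIF4E, was at 3.05 and 21.7 TPM against 918, 806 and 876 TPM (difference 6.50, SE 0.63, adjusted p = 0.000467). Pabpc1l, the oocyte poly(A)-binding protein, was at 0.281 and 3.44 TPM against 207, 205 and 191 TPM (difference 6.41, SE 0.46, adjusted p = 0.000169). Both were lower in replicate 1 than in replicate 2 of day 7, and far below day 21 in each. Obox1, an oocyte homeobox gene, rose from 0 and 14 TPM to 370.0, 337 and 322 TPM (difference 6.47, SE 0.99, adjusted p = 0.00277). Sohlh1, a germ cell basic helix-loop-helix factor that is not among the 4 factors, was listed at 0 at day 7 and stood at 60.9, 42.7 and 56.2 TPM at day 21 (adjusted p = 3.79e-05). Nlrp2, of the maternal Nlrp family, was at 0.944 and 11.5 TPM against 256, 271 and 278 TPM. Zar1l, a binding factor of maternal mRNA, was at 5.12 and 0 TPM against 131, 159.7 and 123 TPM. In these genes every day 21 library was above both day 7 libraries by a wide margin.

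Cpa1, a carboxypeptidase known from pancreatic juice, was listed at 0 at day 7 and stood at 125, 87.7 and 111 TPM at day 21 (adjusted p = 2.4e-05). Tfap2e, a transcription factor of the AP-2 family, was at 0 and 4.87 TPM against 217, 211 and 216 TPM (difference 6.48, SE 0.65, adjusted p = 0.00053), with day 21 libraries close together. Kif17, a kinesin motor, was at 0 and 0.711 TPM against 125, 103 and 92.8 TPM (difference 6.36, SE 0.26, adjusted p = 4.12e-05). Trim61, a tripartite motif gene, rose from 1.67 and 10.5 TPM to 454, 450.5 and 494 TPM (difference 6.39, SE 0.54, adjusted p = 0.00029). Fgf21, an endocrine fibroblast growth factor best known from liver, was at 3.75 and 0 TPM against 114, 121 and 102 TPM (difference 5.70, SE 0.59, adjusted p = 0.000598), and the day 7 reads came from replicate 1 alone. Mfap2, a microfibril protein of the extracellular matrix, was at 0 and 1.27 TPM against 90.7, 100.2 and 86 TPM (difference 5.95, SE 0.33, adjusted p = 8.21e-05). Mt4, a metallothionein, was listed at 0 at day 7 and at 89, 79.2 and 33 TPM at day 21, and Cd7, known from lymphocytes, was at 0.225 and 0 TPM against 70.8, 55.8 and 100.3 TPM. The largest fitted rise was Iglj3, a joining segment of the immunoglobulin lambda locus with 38 exonic bases. It was listed at 0 at day 7 and at 281, 48.5 and 109.8 TPM at day 21, which stand for an estimated 50, 8 and 17.5 reads, a thin and uneven base.

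**Figure D2:**
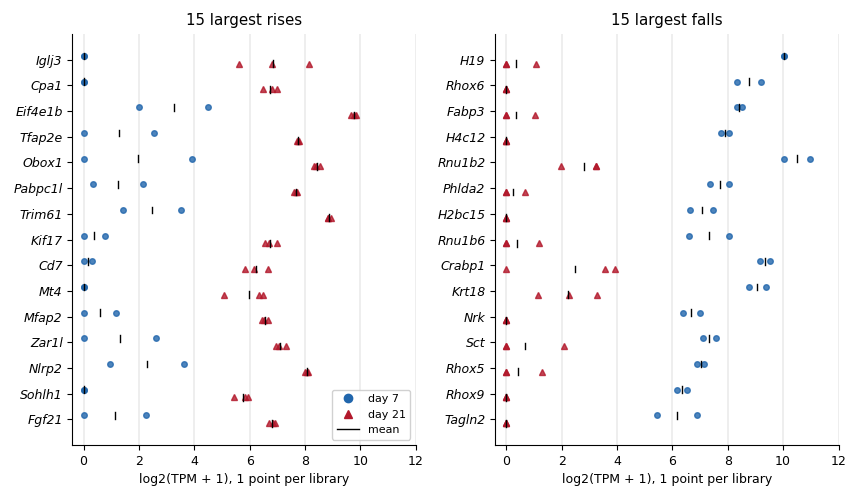
Levels of the 15 named genes with the largest rises (left) and the 15 with the largest falls (right), as log2(TPM + 1), with 1 point per library (day 7 blue circles, day 21 red triangles) and a black bar at the mean of each day. The 2 days do not overlap in any gene shown, day 7 replicates are widest apart in Obox1, Zar1l and Nlrp2, and in Crabp1 the day 21 libraries, at 0, 14.4 and 10.7 TPM, are the widest apart among the falls shown.

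The largest falls included genes known from extraembryonic tissue, replication-dependent histones, and copies of U1 small nuclear RNA. Rhox6, an X-linked homeobox gene known from placenta and germ cells, was at 321 and 591 TPM at day 7 and listed at 0 in all 3 day 21 libraries (adjusted p = 4.71e-05). Rhox9 was at 71.3 and 90.9 TPM and also listed at 0 at day 21, and Rhox5 went from 118 and 139.9 TPM to 1.42, 0 and 0 TPM. These 3 are the Rhox genes that fell, of 5 above the minimum, 3 of which reached it at day 7 alone. Of the others, Rhox10, at 3.01 and 12 TPM against 42.8, 0.905 and 35 TPM, and Rhox1, at 13 and 14.7 TPM against 10.4, 14.6 and 5.40 TPM, did not pass the test. The Rhox cluster holds near-identical copies and only uniquely mapped reads were counted, so single members are uncertain. Phlda2, an imprinted gene that restrains placental growth, was at 163 and 265 TPM against 0, 0.616 and 0 TPM (difference -7.47, SE 0.43, adjusted p = 8.46e-05). Nrk, a kinase known from placenta, was at 81.8 and 126 TPM at day 7 and listed at 0 at day 21. Sct, which codes for secretin, was at 136 and 187 TPM against 0, 3.21 and 0 TPM.

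Fabp3, a fatty acid-binding protein, fell from 364 and 319 TPM to 1.04, 0 and 0 TPM (difference -8.08, SE 0.51, adjusted p = 0.000113), and Crabp1, which binds retinoic acid, from 570.0 and 729 TPM to 0, 14.4 and 10.7 TPM (difference -6.84, SE 1.11, adjusted p = 0.00352). Tagln2, of the transgelin family of actin-binding proteins, was at 42.8 and 119 TPM at day 7 and listed at 0 at day 21. The histone genes H4c12 and H2bc15 were at 261 and 216 TPM and at 177 and 98.5 TPM at day 7, and both were listed at 0 in all day 21 libraries. Rnu1b2, a U1 small nuclear RNA gene, fell from 1991 and 1057 TPM to 8.41, 8.37 and 2.89 TPM, and Rnu1b6 from 265 and 95.8 TPM to 1.29, 0 and 0 TPM. Histone and U1 copies resemble each other closely, and how reads were split between copies is uncertain. In bulk samples fewer cells of a type and less RNA per cell cannot be told apart, and this holds for every fall described here.

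Among the most abundant genes, day 7 was led by structural RNAs and day 21 by Padi6, with Rn7sk and Rpph1 still among the 10 highest. Rpph1, the RNA of ribonuclease P, was at 65875 and 65638 TPM against 7654, 10019 and 9266 TPM. Rn7sk, the 7SK RNA that holds the elongation factor P-TEFb, was at 55736 and 63701 TPM against 11028, 13355 and 14334 TPM. Rpph1 fell by 2.88 on the log2 scale and the fall held, whereas the fall of Rn7sk, a difference of -2.22, did not hold in every scaling. Ccnb1ip1, a meiotic recombination gene, followed Rpph1 closely at 11165 and 11120 TPM against 1304, 1704 and 1571 TPM, and its exons overlap those of Rpph1, with which it shares reads. Malat1, a nuclear long noncoding RNA, was at 5934 and 2212 TPM against 389.7, 202 and 206 TPM, with its day 7 libraries far apart. Eef1a1, the main elongation factor of translation, dropped from 3233 and 3135 TPM to 884, 932 and 827 TPM (difference -1.85, SE 0.11, adjusted p = 8.8e-05).

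At day 21 the highest named gene was Padi6, a peptidylarginine deiminase of the egg cytoplasmic lattices, at 4826 and 5815 TPM against 15209, 15625 and 17317 TPM (difference 1.60, SE 0.19, adjusted p = 0.00109). Zbed3, a protein of the subcortical maternal complex, followed with 788 and 1226 TPM against 9469, 9123 and 10009 TPM (difference 3.28, SE 0.22, adjusted p = 0.000123). Ldhb, the heart form of lactate dehydrogenase, reached 8530.1, 8828 and 9423 TPM from 2557 and 3064 TPM (difference 1.67, SE 0.17, adjusted p = 0.000534). The remaining places among the 10 largest gains in mean TPM were taken by Zp3, Dnmt1, Gdf9, Nlrp5, Zp2, Nlrp14 and Npm2, all 10 of which held. Dppa3, which protects the maternal genome from demethylation, was at 7125 and 7804 TPM against 6987, 7689 and 7583 TPM, a difference of -0.01 (SE 0.17). It was already among the 10 highest genes at day 7, and over the scalings its difference ran from -0.57 to 0.56.

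Genes of the egg coat and the oocyte growth factors rose together, 11 of 14 called higher and 1 lower, with 10 rises and the fall held, against 37.9% and 14.8% of all named genes. Their median difference was 2.24, and 1.89 after median-of-ratios rescaling. Of the 14, 2 reached the TPM minimum at day 21 alone. Zp1 went from 539 and 517 TPM to 1366, 1470.1 and 1408 TPM (difference 1.42, SE 0.10, adjusted p = 0.000132) and Zp2 from 1668 and 2012 TPM to 5617, 5163 and 6218 TPM (difference 1.62, SE 0.16, adjusted p = 0.000468), smaller steps than that of Zp3. Bmp15, the X-linked partner of Gdf9, rose from 23.5 and 31.6 TPM to 291, 285 and 292 TPM (difference 3.36, SE 0.13, adjusted p = 3.79e-05). Fgf8, which oocytes send to cumulus cells, was at 0.566 and 2.13 TPM against 102, 118 and 103 TPM (difference 5.61, SE 0.29, adjusted p = 6.94e-05). Bmp6, a further growth factor, was at 14.2 and 19.8 TPM against 209.7, 187 and 169 TPM. Astl, the cortical granule protease ovastacin that hardens the zona after fertilization, was at 114 and 170.0 TPM against 635, 645 and 592 TPM. The gene that fell was Cd9, a membrane protein needed for sperm fusion, at 189.5 and 232 TPM against 126, 131 and 112 TPM (difference -0.77, SE 0.13, adjusted p = 0.00389), and Izumo1r, the egg receptor for sperm, was at 105 and 101 TPM against 99.4, 139 and 104 TPM, which did not pass the test.

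Promoters of 3 genes that stand for the opposite movements are printed because Figla, one of the 4 factors, is known to act through E-boxes in zona pellucida genes. Sequences are from RefSeq on GRCm38.p6, from 250 bases before to 50 after the transcription start, with every match of the E-box letters CANNTG on either strand in capitals. Zp3 rose, and Krt8 and Krt18, partners in epithelial filaments, fell.
Zp3, chr5:135979855-135980154, plus strand: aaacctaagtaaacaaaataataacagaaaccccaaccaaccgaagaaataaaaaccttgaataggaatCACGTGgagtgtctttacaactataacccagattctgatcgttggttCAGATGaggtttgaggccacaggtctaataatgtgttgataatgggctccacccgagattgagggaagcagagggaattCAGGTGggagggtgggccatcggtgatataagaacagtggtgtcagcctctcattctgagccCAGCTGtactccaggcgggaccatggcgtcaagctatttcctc
Krt8, chr15:102004293-102004592, minus strand: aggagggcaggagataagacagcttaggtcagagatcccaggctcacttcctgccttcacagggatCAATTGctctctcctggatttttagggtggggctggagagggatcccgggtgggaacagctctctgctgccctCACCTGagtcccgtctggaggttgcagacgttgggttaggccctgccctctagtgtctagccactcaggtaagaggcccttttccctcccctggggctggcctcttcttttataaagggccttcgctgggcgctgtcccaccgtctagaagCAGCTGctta
Krt18, chr15:102027966-102028265, plus strand: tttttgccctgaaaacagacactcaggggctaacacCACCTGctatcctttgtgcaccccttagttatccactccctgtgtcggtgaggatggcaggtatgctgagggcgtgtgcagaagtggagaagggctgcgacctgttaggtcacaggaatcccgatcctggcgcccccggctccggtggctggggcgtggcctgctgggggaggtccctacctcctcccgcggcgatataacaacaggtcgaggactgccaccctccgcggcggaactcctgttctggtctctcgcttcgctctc
The window of Zp3 held 4 matches, that of Krt8 3 and that of Krt18 1. CANNTG was found in 72.3% of the 32851 promoters of the table. The Nobox-type homeobox letters TAATTG were in none of the 3 windows and in 8.0% of all promoters, and the TATA box letters TATAAA were in that of Krt8 alone of the 3 and in 13.6% of all promoters. Of the 15 largest rises, 12 genes had 13 promoters in the table, 10 with CANNTG, 2 with TAATTG and 2 with TATAAA. Of the 15 largest falls, 10 genes had 10 promoters, 7 with CANNTG, 0 with TAATTG and 4 with TATAAA. Of the 10928 promoters of the named genes, 63.7% held CANNTG, 4.8% TAATTG and 7.05% TATAAA. A match of letters is a description and not a binding site.

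Of the 16 measured genes of the subcortical maternal complex and other maternal-effect genes, 15 rose, all 15 held, and none was called lower. Their median difference was 2.44, and 2 of the 16 reached the TPM minimum at day 21 alone. Nlrp5, a core subunit also called MATER, was at 1527 and 2264 TPM against 5704, 6338 and 6125 TPM (difference 1.70, SE 0.19, adjusted p = 0.000862). Tle6 was at 416 and 408 TPM against 1775, 1853 and 2008 TPM. Ooep was at 299 and 384 TPM against 915, 1134 and 896 TPM. Npm2, the egg nucleoplasmin that remodels sperm chromatin, rose from 695 and 743 TPM to 4381, 4221 and 4051 TPM (difference 2.55, SE 0.11, adjusted p = 4.79e-05), and H1f8, the oocyte linker histone, from 658 and 759.8 TPM to 3807, 3432 and 3509 TPM (difference 2.34, SE 0.12, adjusted p = 7.04e-05). Btg4, an adaptor for the decay of maternal mRNA, was at 86.2 and 172 TPM against 835, 916 and 728 TPM. Summed over the list, the levels were 17330 and 20950 TPM at day 7 and 55740, 56970 and 59350 TPM at day 21. Khdc3, at 482 and 505 TPM against 907, 848 and 882 TPM, changed least among its rises.

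All 12 measured oocyte Nlrp genes rose and held, with a median difference of 3.51, although 4 of the 12 reached the TPM minimum at day 21 alone. Nlrp14 went from 153 and 523 TPM to 3982, 3735 and 4259 TPM (difference 3.81, SE 0.46, adjusted p = 0.00113). Its day 7 libraries differed by more than 2-fold, replicate 2 being the higher. Nlrp4a, Nlrp9b and Nlrp9a were at 14.3 and 23 TPM against 325, 276 and 274 TPM, at 1.37 and 2.93 TPM against 119, 98.9 and 69.3 TPM and at 0 and 4.95 TPM against 109, 94.8 and 60.9 TPM. Of 20 measured oocyte F-box (Fbxw), Oog and Prame genes, which lie in clusters of recent duplicates, 19 rose and held, although 7 of the 20 reached the minimum at day 21 alone. Fbxw24, the highest of them, was at 104 and 286 TPM against 2197, 2148 and 2238 TPM (difference 3.66, SE 0.38, adjusted p = 0.000617). Oog3 was at 6.83 and 6.37 TPM against 342, 276 and 277 TPM. Oog4 was at 1.16 and 6.19 TPM against 132, 147 and 137 TPM. Fbxw17 stood apart at 8.74 and 6.92 TPM against 13.4, 6.03 and 5.81 TPM. The 4 measured Obox genes rose, 2 of them admitted through day 21 alone, with Obox2 at 6.50 and 44.4 TPM against 578, 506 and 513 TPM. Obox5 was at 16.9 and 17 TPM against 312, 252 and 214 TPM. Single members of these families are uncertain, since reads that match several copies were not counted.

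The 4 induced factors were called higher by smaller steps than most genes above. Their TPM count the transgene and the endogenous gene together. Nobox was at 701 and 662 TPM against 1102, 1196 and 1254 TPM (difference 0.79, SE 0.10, adjusted p = 0.00154). Lhx8 was at 195 and 215 TPM against 444, 417 and 438 TPM (difference 1.08, SE 0.09, adjusted p = 0.00029). Figla was at 504 and 429 TPM against 741, 726 and 816 TPM (difference 0.71, SE 0.11, adjusted p = 0.00309). Tbpl2 was at 126 and 137 TPM against 212, 261 and 165 TPM (difference 0.67, SE 0.19, adjusted p = 0.03). The calls of Nobox and Lhx8 held, and those of Figla and Tbpl2 did not. The 13 measured oocyte transcription factors had 9 genes higher and 0 lower, with 6 held. Of the 13, 3 reached the TPM minimum at day 21 alone. Zfp57, which guards imprints, rose from 383 and 351 TPM to 1391, 1389 and 1432 TPM (difference 1.94, SE 0.10, adjusted p = 6.14e-05). Sohlh2, the partner of Sohlh1, was at 46.2 and 50.2 TPM against 102, 92.6 and 58.2 TPM and did not pass the test. Foxo3, which keeps primordial oocytes dormant, was at 227 and 242 TPM against 240.3, 173 and 208 TPM and did not pass it either.

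Genes that store and mask maternal mRNA mostly rose. Of 18 measured storage and translational control genes, 13 were called higher and 1 lower, with 11 and 1 held, and 3 reached the minimum at day 21 alone. Zar1, a factor of the oocyte mRNA store, rose from 21.9 and 41.1 TPM to 375, 408 and 438 TPM (difference 3.71, SE 0.24, adjusted p = 0.000121). Lsm14b, of the same stores, was at 1087 and 1249 TPM against 2540, 2460.2 and 2126 TPM. Eif4enif1, the eIF4E transporter that holds mRNA inactive, was at 131 and 146 TPM against 518, 453 and 480.1 TPM. Patl2, an oocyte mRNA repressor, was at 18.6 and 14.8 TPM against 123, 110.3 and 94.9 TPM. Cpeb1, which directs cytoplasmic polyadenylation, was at 203 and 206 TPM against 398, 393 and 342 TPM (difference 0.88, SE 0.10, adjusted p = 0.000972). Pum2, a repressor that binds mRNA tails, was at 94.3 and 101 TPM against 94.5, 89.4 and 84.1 TPM and did not pass the test. Of 15 measured genes of deadenylation and decay, 7 were higher and 2 lower. Dcp1a of the decapping complex was at 75.9 and 74.1 TPM against 324, 281 and 311 TPM. The deadenylase Cnot8 was at 55.3 and 69.4 TPM against 207, 224 and 219 TPM. Both were called higher. Tut4, a terminal uridylyltransferase, fell from 33.2 and 17.2 TPM to 5.19, 2.31 and 4.67 TPM (difference -2.36, SE 0.45, adjusted p = 0.00691). Among 22 measured genes of piRNAs and other small RNAs, 8 were higher and 4 lower. Of the rises, 2 held, those of Tdrd1 and Tdrd5. All 4 falls held, Ago1, Ago2, Ago4 and Gpat2, a check that asks less of falls.

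The mRNA of cytosolic ribosomal proteins fell almost without exception. Of 76 measured genes, 74 were called lower, all 74 held, none was called higher, and the median difference was -1.59 (-1.94 after median-of-ratios rescaling). Summed, they stood at 41540 and 38780 TPM at day 7 and at 12580, 13920 and 12920 TPM at day 21. Rpl17 changed most, from 1718 and 1582 TPM to 41.1, 53.6 and 47.4 TPM (difference -5.10, SE 0.14, adjusted p = 2.4e-05). Rps23 was at 2278 and 2041 TPM against 169.6, 205 and 150.2 TPM. Rpl7a was at 879 and 782 TPM against 52.1, 65.5 and 43.2 TPM. The falls were unequal. Rplp1, the highest of the list at day 21, was at 3216 and 2666 TPM against 1634, 1482 and 1775 TPM (difference -0.85, SE 0.14, adjusted p = 0.00404). Rpl34, at 112 and 115 TPM against 63.6, 98.7 and 72.7 TPM, did not pass the test. Many of these genes have processed pseudogenes, and reads that match both were not counted, so levels of single subunits are uncertain.

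Other translation genes did not follow the ribosomal proteins. Of 63 measured initiation and elongation factors, 27 were higher and 11 lower, with 13 and 11 held, and the median of 0.39 turned to -0.15 with voom. The elongation factors Eef2 and Eef1g fell, from 1183 and 977 TPM to 578, 586 and 667 TPM and from 224 and 249 TPM to 58.3, 63.3 and 54.6 TPM. Eif1b, a start codon factor, rose from 109 and 124 TPM to 716, 625 and 574 TPM (difference 2.44, SE 0.12, adjusted p = 6.57e-05), and Eif2b1, of the exchange factor of eIF2, from 38 and 30.2 TPM to 159, 192 and 162 TPM. Eef2k, the kinase that slows Eef2, was at 35.1 and 32.8 TPM against 139.5, 109.6 and 119 TPM (difference 1.81, SE 0.13, adjusted p = 0.000174). Eif2ak2, the double-stranded RNA-activated kinase PKR, was at 34.9 and 38.6 TPM against 1.67, 0.135 and 0.653 TPM (difference -4.46, SE 0.47, adjusted p = 0.000627). Of 77 measured mitochondrial ribosomal proteins, 37 were higher and 2 lower, 18 and 2 held, with a median difference of 0.74. Mrpl18 went from 80.7 and 115 TPM to 405, 398 and 402 TPM and Mrps21 from 59.3 and 74.4 TPM to 229, 229.9 and 219 TPM.

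**Figure D3:**
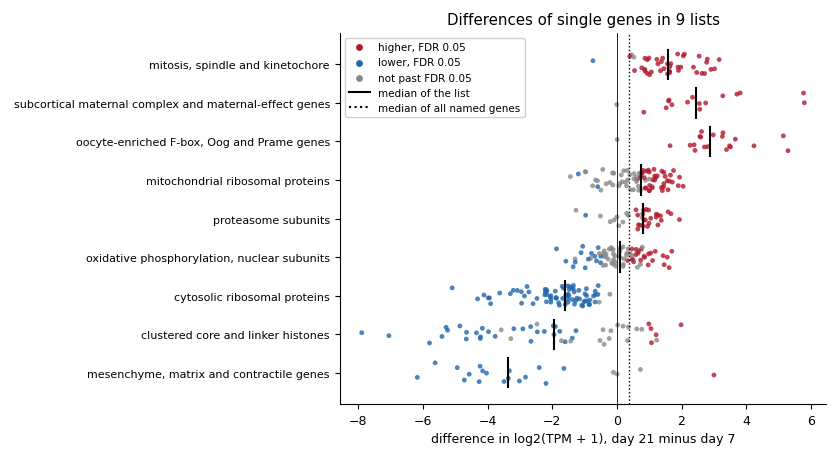
Difference in log2(TPM + 1) between day 21 and day 7 for every measured gene of 9 lists, with 1 point per gene in red where called higher at FDR 0.05, in blue where called lower and in grey otherwise; the black bar is the median of the list and the dotted line that of all named genes, 0.38. Cytosolic ribosomal proteins lie below 0 throughout, with a median of -1.59, and mitosis genes above it save for a single called fall, with a median of 1.56.

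Genes of meiotic arrest and resumption rose, 15 of 19 measured and 0 lower, with 11 held. Of the 19, 2 reached the TPM minimum at day 21 alone. Mos, the kinase that keeps eggs in metaphase, was at 14.8 and 11.1 TPM against 138, 91.5 and 129 TPM (difference 3.10, SE 0.22, adjusted p = 0.000145). Fbxo43, the inhibitor of the anaphase-promoting complex in eggs, was at 8.78 and 11.9 TPM against 95.9, 84.8 and 89.6 TPM (difference 3.02, SE 0.15, adjusted p = 6.57e-05). Wee2, the oocyte kinase that inhibits Cdk1, was at 44.1 and 55.3 TPM against 321, 326 and 311 TPM. Pde3a, the phosphodiesterase whose activity ends arrest, was at 22.9 and 27.4 TPM against 108, 97.6 and 97 TPM. Cdk1 was at 23.9 and 31.2 TPM against 55, 66.9 and 50 TPM, a rise that did not hold. Ccnb3, a meiotic cyclin, was at 26.5 and 30.3 TPM against 31, 21.9 and 22.1 TPM and did not pass the test. Gpr3, the receptor that keeps cAMP high, was at 2.98 and 7.0 TPM against 9.45, 10.5 and 14.9 TPM, a call that was lost after median-of-ratios rescaling. Meiotic prophase genes were split. Of 19 measured, 3 were higher and 3 lower, and 13 did not pass the test. Rec8, the meiotic cohesin, was at 9.03 and 6.92 TPM at day 7 and listed at 0 in all day 21 libraries, Stag3 fell from 48 and 16.3 TPM to 6.07, 4.18 and 6.45 TPM, and Meioc, which keeps germ cells in prophase, from 64.1 and 41.7 TPM to 3.33, 5.04 and 4.65 TPM (difference -3.32, SE 0.35, adjusted p = 0.00067). Syce2, of the synaptonemal complex, rose from 109 and 94 TPM to 506, 459 and 456 TPM, while Sycp3, a further part of it, was at 61.7 and 50.5 TPM against 52.3, 19.8 and 49.8 TPM.

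Of 42 measured genes of mitosis, spindle and kinetochore, 39 were called higher and 1 lower, 28 and 1 held, and the median difference was 1.56. Bub1b, a spindle checkpoint kinase, was at 43.7 and 52.9 TPM against 477, 444 and 398 TPM (difference 3.16, SE 0.13, adjusted p = 4.12e-05), and Ndc80 of the kinetochore at 22.5 and 23.7 TPM against 172, 174 and 153 TPM. Kif4, a chromosome kinesin, was at 103 and 129 TPM against 786, 792 and 806 TPM. Birc5, survivin of the chromosome passenger complex, was at 58.1 and 86.4 TPM against 402, 393 and 395 TPM. Pttg1, securin, was at 39.2 and 54.9 TPM against 337, 395 and 335 TPM. The single fall was Hmmr, at 68.7 and 82.2 TPM against 39.4, 56.1 and 39.8 TPM (difference -0.74, SE 0.20, adjusted p = 0.0229), a call that was lost without replicate 1 or 2 of day 7 or replicate 1 or 3 of day 21. Of 43 measured DNA replication genes, 27 were higher and 2 lower, but 11 of the rises held. E2f2 was at 3.13 and 2.35 TPM against 42.8, 31.9 and 41.6 TPM. Cdt1, the licensing factor, was at 29.5 and 25.7 TPM against 99.5, 96 and 131 TPM. Mcm4, a helicase subunit, was at 87.4 and 84.4 TPM against 109, 118 and 99.1 TPM and did not pass the test, and Rfc4, a clamp loader subunit, fell from 111 and 94.4 TPM to 43.2, 48.9 and 23.1 TPM. Division genes are used by both meiosis and mitosis, and oocytes store their mRNA, so these counts are of transcripts and not of dividing cells. Among 24 measured DNA repair genes, 12 were higher and 2 lower, with Rad50 at 104 and 72.5 TPM against 543, 500.5 and 551 TPM. Rad54l, a fall, was at 17.1 and 21.7 TPM against 11.3, 9.93 and 10.2 TPM.

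DNA methylation genes moved unevenly, 8 of 14 higher and 2 lower, with 6 and 2 held. Beside Dnmt1, its recruiting factor Uhrf1 rose from 637 and 730.5 TPM to 1679, 1553 and 1775 TPM (difference 1.29, SE 0.12, adjusted p = 0.000369), and Tet3, the oocyte methylcytosine dioxygenase, from 35.5 and 66.3 TPM to 497, 483 and 532 TPM (difference 3.35, SE 0.24, adjusted p = 0.000171). Dnmt3l, the cofactor of methylation in growing oocytes, was at 0 and 0.705 TPM against 12.5, 11.1 and 13.7 TPM. The de novo enzymes Dnmt3a, at 46 and 40.8 TPM against 38.7, 38 and 37.5 TPM, and Dnmt3b, at 22.5 and 13.8 TPM against 17.2, 12.8 and 20.5 TPM, did not pass the test. Kdm1b, a histone demethylase needed for maternal imprints, was at 855 and 878 TPM against 1557, 1356 and 1538 TPM (difference 0.77, SE 0.11, adjusted p = 0.0023). Polycomb and histone methylation genes had 14 of 27 higher and 5 lower, with 7 and 5 held, and their median of 0.51 became -0.02 with voom. Ezh2, the methyltransferase of Polycomb repressive complex 2, was at 28.3 and 24.9 TPM against 203, 182 and 164 TPM (difference 2.73, SE 0.13, adjusted p = 6e-05). Pcgf1 was at 16.7 and 13 TPM against 112, 95.8 and 113 TPM. Kmt2a, a fall, was at 40.8 and 36 TPM against 15.7, 12.9 and 13.6 TPM.

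Replication-dependent histone genes mostly fell, 28 of 50 lower and 5 higher, with 27 falls and none of the rises held, and 18 of the 50 reached the minimum at day 7 alone. H2bc3 was at 114 and 93.1 TPM against 0.420, 5.44 and 3.99 TPM. H1f4 was at 172 and 146 TPM against 31.2, 41 and 48.9 TPM. In the other direction H1f1 was at 876 and 913 TPM against 2103, 1608 and 1647 TPM. H2bc18 was at 436 and 565 TPM against 951, 1141 and 1013 TPM. The summed level was close on both days, 5422 and 4886 TPM against 4980, 4472 and 4347 TPM, with a few high genes such as H1f1 and H2bc18 above their day 7 levels. Histone variants and chaperones were mostly higher, 15 of 25 with 4 lower and with 9 and 3 held. H1f10 was at 15.5 and 18 TPM against 100.4, 95.3 and 95.2 TPM. H2ax was at 29.6 and 58.7 TPM against 153, 153 and 157 TPM. The chaperone Chaf1a was at 35.9 and 32.7 TPM against 129, 129 and 140.0 TPM. H3f3a fell from 181 and 208 TPM to 38.7, 19.5 and 52.5 TPM (difference -2.47, SE 0.37, adjusted p = 0.00261), while H3f3b, which codes for the same H3.3 protein, was at 201 and 232 TPM against 409, 361 and 395 TPM, a rise that did not hold.

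Imprinted genes fell more often than they rose, 11 lower and 4 higher of 17 measured, with 11 and 2 held, although 7 reached the minimum at day 7 alone. Peg10, needed in placenta, was at 663 and 932 TPM against 15, 13.4 and 28.4 TPM (difference -5.38, SE 0.33, adjusted p = 9.79e-05). Cdkn1c, a cell cycle inhibitor, was at 194 and 379 TPM against 37.3, 49.2 and 23.6 TPM (difference -2.91, SE 0.39, adjusted p = 0.00166). Peg3 was at 125 and 158 TPM against 60.3, 47.2 and 43.4 TPM. Snrpn was at 75.2 and 68.6 TPM against 32.7, 38.7 and 31.6 TPM. Mest rose from 2.68 and 2.23 TPM to 41.2, 19.9 and 27.8 TPM (difference 3.09, SE 0.32, adjusted p = 0.000602) and Grb10 from 14.3 and 19.6 TPM to 77.1, 56 and 59.9 TPM. Of 295 measured zinc finger genes named Zfp, 84 were higher and 56 lower (41 and 52 held), and their median of 0.10 turned to -0.23 after rescaling. Zfp296 was at 39.8 and 45.3 TPM against 373, 393 and 372 TPM. Zfp735 was at 0.587 and 3.68 TPM against 85.9, 85.7 and 55.9 TPM, and both rose. Zfp976 fell from 25.6 and 16.7 TPM to 0.940, 1.08 and 3.80 TPM.

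In energy metabolism Ldhb stood apart from the glycolytic chain. Of 16 measured glycolysis genes, 6 were lower, all held, and 2 higher, of which Ldhb held. Ldha, the muscle form, was at 28.9 and 42.5 TPM against 6.19, 3.55 and 1.58 TPM (difference -3.04, SE 0.51, adjusted p = 0.00409). Pgk1 was at 88.6 and 75.6 TPM against 20.9, 31.7 and 36.4 TPM. Gapdh was at 23.4 and 20.8 TPM against 6.87, 8.41 and 7.85 TPM. Aldoc was at 18.3 and 17.7 TPM against 2.88, 0.0705 and 1.83 TPM. The glucose transporter Slc2a3 was at 7.67 and 9.09 TPM against 0, 0 and 0.0987 TPM. Counted from unique reads, the other genes of the chain were far below Ldhb on both days. Pkm, at 140.0 and 142 TPM against 184, 189 and 185 TPM, was the highest of them. Reads that match several places were not counted, so how low single genes such as Gapdh truly were is uncertain. Of 29 genes of pyruvate use and the TCA cycle, 13 were higher and 3 lower, with 4 and 3 held. Pdha1, of pyruvate dehydrogenase, was at 30.8 and 33.3 TPM against 78.1, 86.7 and 98 TPM (difference 1.42, SE 0.13, adjusted p = 0.000402). Fh1, fumarase, was at 21 and 27.6 TPM against 63.9, 102 and 103 TPM. Idh2, the fall of largest size, was at 26.2 and 28.3 TPM against 0.825, 5.43 and 3.50 TPM. The 76 measured nuclear subunits of oxidative phosphorylation split into 21 higher and 14 lower, with 5 and 14 held, and a median of 0.10 that became -0.25 after rescaling. Ndufa9 rose from 27.2 and 39.3 TPM to 86, 144 and 103 TPM and Cyc1 fell from 55.7 and 51.2 TPM to 15.3, 12.7 and 26 TPM. Mitochondrially encoded genes are not analysed here.

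Genes of the amino acid response and serine synthesis had 13 of 23 higher and 0 lower, with 10 held. Of the 23, 3 reached the TPM minimum at day 21 alone. Atf4, the transcription factor of this response, was at 137 and 142 TPM against 479, 412 and 359 TPM (difference 1.56, SE 0.15, adjusted p = 0.000456). Ddit4, an inhibitor of mTOR complex 1 induced by stress, was at 0.436 and 0 TPM against 51.7, 63.5 and 59.2 TPM (difference 5.62, SE 0.22, adjusted p = 3.79e-05). Mthfd2 and Shmt2, of mitochondrial one-carbon metabolism, rose from 31.6 and 22.7 TPM to 170.0, 137 and 148 TPM and from 26.3 and 17.2 TPM to 110.3, 127 and 103 TPM, and the amino acid transporter Slc7a5 from 11.6 and 14.2 TPM to 81.3, 66.9 and 101 TPM. Phgdh, the first enzyme of serine synthesis, was at 57.3 and 46.6 TPM against 12.9, 38.9 and 36.4 TPM. Trib3 was at 3.60 and 6.85 TPM against 6.13, 2.60 and 3.48 TPM. Neither passed the test. In cholesterol synthesis and uptake, 7 of 23 were higher and 2 lower, 4 and 2 held. Fdft1, squalene synthase, was at 221 and 284 TPM against 656, 626 and 667 TPM (difference 1.37, SE 0.13, adjusted p = 0.00041). Of 11 hypoxia response genes, 5 were higher and 1 lower, and a single call, the rise of Ankrd37, held.

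Of 35 measured proteasome subunits, 24 were higher and 1 lower, with 9 and 1 held and a median of 0.81. Psmd10 was at 20.3 and 22.2 TPM against 76.6, 81.2 and 95 TPM. Psma2 was at 37.7 and 37.8 TPM against 128, 121 and 118 TPM. Psmd14, the fall, was at 52.6 and 46.5 TPM against 28.2, 18.8 and 28.6 TPM. Of 18 chaperones of the endoplasmic reticulum, 12 were higher and 0 lower, with 7 held. Calr was at 428 and 515 TPM against 1459, 1559 and 1487 TPM (difference 1.67, SE 0.11, adjusted p = 0.000133). Hsp90b1 was at 407 and 500.1 TPM against 1155, 1087 and 1130.1 TPM and rose. Hspa5, the master chaperone of the unfolded protein response, was at 372 and 346 TPM against 347, 293 and 312 TPM. Xbp1 was at 42 and 31.5 TPM against 40.7, 36.2 and 36.3 TPM. Neither Hspa5 nor Xbp1 passed the test. Cytosolic heat shock proteins split into 10 higher and 3 lower of 20, with 5 and 3 held. Hsp90ab1 was at 991 and 1195 TPM against 3559.5, 3263 and 3030.1 TPM (difference 1.59, SE 0.14, adjusted p = 0.000314), whereas Hspb1 fell from 53.9 and 109.8 TPM to 1.66, 0 and 0 TPM and Bag3 from 46.9 and 64.9 TPM to 1.08, 5.66 and 3.54 TPM. Autophagy and lysosome genes had 7 higher and 7 lower of 26, with 2 and 7 held. Atg5 was at 105 and 118 TPM against 338, 326 and 367 TPM, and the lysosomal enzyme Ctsl fell from 30.2 and 43.1 TPM to 8.58, 11.8 and 9.0 TPM.

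Tubulins and centrosome genes rose in 14 of 20 cases with 3 lower, and 9 and 3 held. Tacc3, of oocyte spindles, was at 159 and 175 TPM against 1070.5, 1029.5 and 1004 TPM (difference 2.63, SE 0.09, adjusted p = 3.79e-05). Pcnt, pericentrin, was at 51 and 53.7 TPM against 215, 187 and 224 TPM. Actin and cortex genes had 7 higher and 8 lower of 22, with 3 and 8 held. Rdx, radixin, was at 1044 and 1361 TPM against 2958, 2796 and 2552 TPM (difference 1.21, SE 0.16, adjusted p = 0.00141). Fmn2, a formin that moves the meiotic spindle, was at 18.6 and 19.4 TPM against 67.8, 50.4 and 44.5 TPM, while Actb was at 1068 and 1358 TPM against 739, 740.4 and 797 TPM. Myl6 was at 135 and 128 TPM against 51, 57.3 and 47.8 TPM. Both fell. Nuclear pore and transport genes had 19 higher and 6 lower of 43, with 15 and 6 held. Nup214, a rise, was at 34.5 and 38.5 TPM against 199, 141 and 163 TPM. Kpna1, an importin that fell, was at 32.5 and 31.7 TPM against 11.2, 9.22 and 9.30 TPM. Of 5 measured connexins, the subunits of gap junctions, 3 rose and 1 fell, all held. Gja4, the connexin that joins oocytes to granulosa cells, was at 34.9 and 26.7 TPM against 281, 234 and 324 TPM (difference 3.14, SE 0.18, adjusted p = 8.71e-05). Gjb2 was at 10.8 and 10.7 TPM against 69.5, 64.2 and 74.6 TPM.

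Kit and a few other signalling genes rose. In the Kit, PI3K and mTOR list 4 of 19 were higher and 0 lower, with 3 held. Kit, the receptor of the SCF in the medium, was at 37.3 and 61 TPM against 286, 241 and 269 TPM (difference 2.45, SE 0.21, adjusted p = 0.00029). Pik3r1 was at 31.8 and 47.1 TPM against 131, 106 and 112 TPM. Mtor was at 55 and 33.4 TPM against 56.4, 54.8 and 65.6 TPM. It did not pass the test. Of 15 measured TGF-beta receptors and SMADs, 5 were higher and 2 lower, with 3 and 2 held, Smad3 at 36.6 and 38.1 TPM against 88.4, 80.7 and 86.8 TPM. Bmpr1a, a fall, was at 68.8 and 61 TPM against 42.4, 45.2 and 34.5 TPM. Among 13 Wnt and Notch genes 6 were higher and 1 lower, with 5 and 1 held, and 3 reached the minimum at day 21 alone. Jag1, a Notch ligand, was at 70.9 and 97.2 TPM against 385, 348 and 363 TPM (difference 2.12, SE 0.16, adjusted p = 0.000185). Axin2, a Wnt target, was at 17.6 and 28.8 TPM against 92.2, 99.9 and 101 TPM. Of 12 FGF and ERK genes 2 were higher and 2 lower, all held, with Spry4 at 1.98 and 1.01 TPM against 63, 28.1 and 33.9 TPM. Jun was at 27.8 and 27.7 TPM against 4.02, 4.04 and 6.65 TPM. Egg calcium genes had 7 of 12 higher and 1 lower, with 5 and 1 held. Of the 12, 2 reached the minimum at day 21 alone and 1 at day 7 alone. Orai1, a store-operated calcium channel, was listed at 0 at day 7 and at 33.9, 21.2 and 35.1 TPM at day 21, and Itpr1, the calcium release channel of fertilization, was at 124 and 102 TPM against 120.4, 108 and 118 TPM, not past the test.

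Markers of other cells fell in 3 lists. Of 14 measured simple keratins and epithelial junction genes, 8 were lower, all held, and 0 higher, and 4 of the 14 reached the minimum at day 7 alone. Krt8 was at 659.5 and 863 TPM against 36.4, 128 and 50.1 TPM (difference -3.59, SE 0.50, adjusted p = 0.00184), and Krt7 and Krt19 were at 24.3 and 25.1 TPM and at 37 and 127 TPM at day 7 and listed at 0 at day 21. Krt8 alone of the keratins was still above 30 TPM in every day 21 library. Cdh1, E-cadherin, which oocytes express too, was at 116 and 149 TPM against 200.5, 142 and 176 TPM. Tjp1 was at 116 and 134 TPM against 143, 129.6 and 136 TPM. Neither passed the test. Summed levels of this list were 1900 and 2527 TPM at day 7 and 671, 766 and 688 TPM at day 21.

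Of 14 trophoblast markers, 7 were measured, and 6 of these were lower, all held, with 5 of the 7 reaching the minimum at day 7 alone. Hand1 was at 12 and 63.6 TPM at day 7 and listed at 0 at day 21. Plac1 was at 68.9 and 83.9 TPM against 2.29, 5.78 and 2.22 TPM. Esx1 was at 51.4 and 33.1 TPM against 0, 0.696 and 0 TPM. Gata3 was low even at day 7, at 8.30 and 10.6 TPM against 0.107, 0 and 0.0599 TPM, and 5 markers of the list were listed at 0 in both day 7 libraries. The summed level was 831 and 1166 TPM at day 7 and 40.9, 33.6 and 53 TPM at day 21, and Peg10 made most of it at day 7. Of 41 mesenchyme, matrix and contractile genes, 21 were measured, 17 were lower, all held, and 1 higher, and 10 of the 21 reached the minimum at day 7 alone. Col4a1, of basement membranes, was at 301 and 171 TPM against 5.75, 5.58 and 13.5 TPM (difference -4.72, SE 0.42, adjusted p = 0.000329). Lgals1 was at 248 and 317 TPM against 2.95, 15.6 and 24.3 TPM. Sparc was at 71.8 and 63 TPM against 0, 0 and 1.64 TPM. Fn1 was at 56.5 and 47.3 TPM against 5.0, 6.05 and 5.49 TPM. The exception was Lamb1, a laminin chain, at 70.3 and 54.2 TPM against 537, 468 and 501 TPM (difference 3.00, SE 0.14, adjusted p = 5.93e-05). Summed levels were 1631 and 1585 TPM at day 7 and 722, 674 and 743 TPM at day 21. These lists moved with the falls of H19, Phlda2, the Rhox genes and Nrk described above, and the part of other cells in those falls was not tested.

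Pluripotent cell markers did not move as a set. Of 25, 13 were measured, 7 higher and 3 lower, with 6 and 3 held, and 4 of the 13 reached the minimum at day 21 alone. Pou5f1, which growing oocytes express too, was at 24.4 and 30.1 TPM against 167, 154 and 267 TPM (difference 2.77, SE 0.27, adjusted p = 0.000479). Sall4, shared with oocytes, was at 30 and 26.9 TPM against 127, 98 and 104 TPM. Esrrb was at 3.92 and 12.3 TPM against 28.3, 37.5 and 44.3 TPM. Gbx2 was at 5.74 and 3.47 TPM against 180.3, 176 and 158 TPM (difference 4.97, SE 0.19, adjusted p = 3.79e-05). Dppa4 fell from 53.8 and 51.5 TPM to 7.32, 6.51 and 0.287 TPM (difference -3.64, SE 0.79, adjusted p = 0.0112), Dppa2 from 51.4 and 47.6 TPM to 10.8, 18.9 and 12.6 TPM and Zfp42 from 20.6 and 21.9 TPM to 6.35, 6.79 and 8.75 TPM. Among 17 endoderm markers 4 were measured, with Gata4, a rise, at 3.07 and 1.57 TPM against 32.4, 46.3 and 42.9 TPM (difference 3.67, SE 0.26, adjusted p = 0.000153). Dab2, a fall, was at 52.8 and 59.9 TPM against 3.43, 4.39 and 4.55 TPM (difference -3.49, SE 0.28, adjusted p = 0.000226), and 9 were listed at 0 in both day 7 libraries. Of 12 neural markers 5 were measured, 3 higher and 2 lower, among them the tubulin Tubb3 at 6.68 and 5.74 TPM against 188, 221 and 215 TPM. Nes was at 150.1 and 121 TPM against 59.9, 34 and 45 TPM. The mesoderm list had 2 of 12 measured, with Isl1, a rise, at 1.42 and 0.193 TPM against 5.07, 8.84 and 9.88 TPM. Of 16 gonadal somatic markers 2 were measured and 0 called, as in the list of 12 endothelial and blood markers. None of the 13 muscle markers reached the minimum.

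Interferon response genes mostly fell, 8 of 14 lower and 2 higher, with 8 and 1 held, and 6 of the 14 reached the minimum at day 7 alone. Isg15 and Irf7 were at 43.1 and 29.1 TPM and at 22.3 and 27.6 TPM at day 7 and were listed at 0 in all day 21 libraries. B2m, of the class I antigen complex, was at 178 and 208 TPM against 64.5, 61.3 and 46.9 TPM (difference -1.74, SE 0.17, adjusted p = 0.000528), and Irf1 rose from 16.2 and 13.9 TPM to 72, 71 and 84.8 TPM (difference 2.26, SE 0.17, adjusted p = 0.000206). In the p53 and apoptosis list 4 of 19 were higher and 6 lower, with 3 and 6 held. Bcl2l10, an oocyte member of the Bcl2 family, was at 23.7 and 58.5 TPM against 486, 392 and 428 TPM (difference 3.50, SE 0.34, adjusted p = 0.000476). Mdm2 was at 65.4 and 69.6 TPM against 134, 149 and 179 TPM, and Cdkn1a, p21, fell from 26.9 and 49.3 TPM to 9.52, 11.3 and 15.9 TPM.

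**Figure D4:**
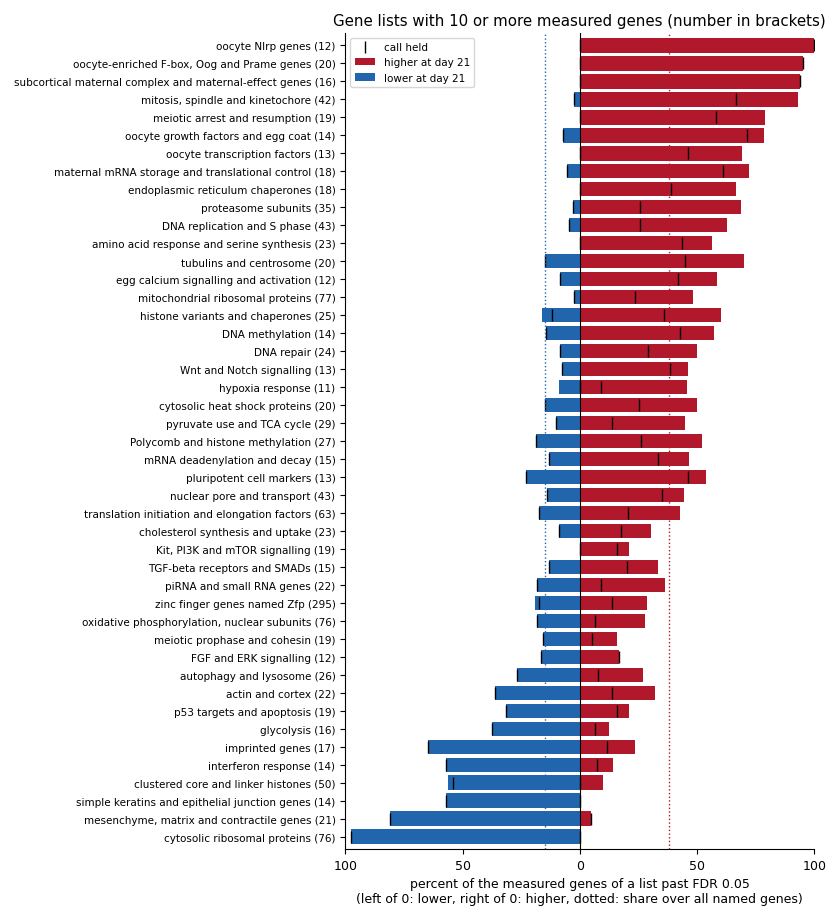
Percent of the measured genes of each list with 10 or more such genes that passed FDR 0.05 between day 7 and day 21, to the right where higher at day 21 and to the left where lower; black ticks mark the share whose call held in the 5 other scalings and tests. Dotted lines give the share over all named genes, 37.9% higher and 14.8% lower; all 12 oocyte Nlrp genes were higher and 74 of 76 cytosolic ribosomal proteins lower.

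Within gene families the composition of transcripts changed as well. Shares within a family are unchanged when all values of a library are multiplied by a single factor, but not under quantile normalization. The families were picked after their values were seen, so the shares are a description with no test. Of the TPM of the eIF4E genes, Eif4e1b held 2.9% and 13.6% at day 7 and 79.8%, 77.4% and 80.4% at day 21. Pabpc1l made 0.0725% and 0.924% of the poly(A)-binding proteins at day 7 and 29.9%, 30.4% and 31.2% at day 21, while Pabpc4 remained the most abundant of them on both days. In both families an oocyte form held a small share at day 7 and a large one at day 21.

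H1f8 made 29.0% and 32.7% of linker histone TPM at day 7 and 58.8%, 60.6% and 60.6% at day 21. H1f1 was the largest at day 7, with 38.6% and 39.3%. Tuba4a held 12.8% and 13.2% of alpha-tubulin at day 7 and 36.5%, 40.4% and 42.5% at day 21, and Tuba1b 20.7% and 22.9% against 1.58%, 3.24% and 4.17%. Among beta-tubulins, Tubb4b went from 36.5% and 46.7% to 58.9%, 59.0% and 61.5%, and Tubb5 from 24.6% and 19.6% to 5.18%, 4.64% and 4.44%. Kpna7, the oocyte importin alpha, made 13% and 12.1% of its family at day 7 and 25.9%, 26.8% and 28.1% at day 21. Kpna2 was the largest of that family in every library, with 47.2% and 51.6% at day 7 and 51.5%, 51.0% and 53.9% at day 21. Tet3 held 51.0% and 75% of TET transcripts at day 7 and 97.1%, 96.9% and 96.9% at day 21. In some further families a single gene held most of the TPM in every library. Ldhb was 98.6% and 98.2% of lactate dehydrogenase TPM at day 7 and at least 99.4% at day 21, Dnmt1 82.5% and 89.6% of DNA methyltransferases and then at least 98.5%, and Npm2 61.1% and 59.7% of nucleoplasmins and then at least 78.9%. Among the argonautes Ago2 was first in every library, and Ago4 went from 11.9% and 14% to 4.43%, 0.0823% and 0.671%.

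**Figure D5:**
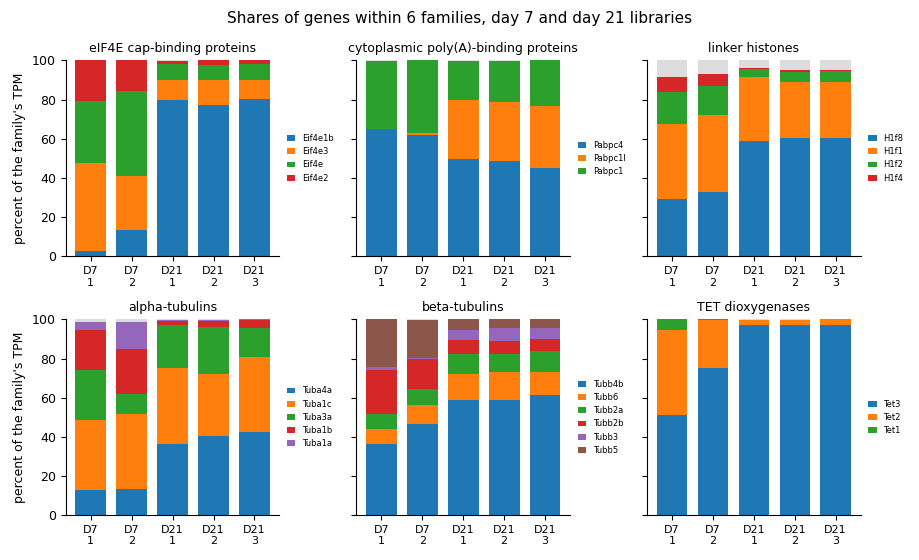
Share of each gene in the summed TPM of its family, as percent, in the 2 day 7 libraries and the 3 day 21 libraries; each bar is 1 library and grey is the sum of genes under 3% in every library. Eif4e1b takes 77.4% to 80.4% of eIF4E transcripts at day 21 against 2.9% and 13.6% at day 7, H1f8 about doubles its share, and Tuba4a, Tubb4b and Tet3 gain in the 3 lower panels.

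Some abundant genes stayed within narrow bounds. The 95% interval of the difference lay between -0.5 and 0.5 for 363 named genes. Dppa3 was the highest of them, followed by Ubb, a ubiquitin gene, at 1189.7 and 1592 TPM against 1275, 1290.2 and 1231 TPM. Lamp1, a lysosomal membrane protein, was at 438 and 469 TPM against 503, 511 and 502 TPM. Psip1, a chromatin reader, was at 402 and 431 TPM against 481, 477 and 453 TPM. Ywhaz, a 14-3-3 protein, was at 342 and 454 TPM against 395, 417 and 370.4 TPM. In the other scalings the differences of Ubb, Lamp1, Psip1 and Ywhaz fell to as low as -0.69, -0.39, -0.37 and -0.57. Which genes count as stable depends on the scaling.

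The 2 day 7 libraries also differed from each other. At day 7, 2229 named genes had mean levels from 50 TPM up. Of these, 49 were over 2-fold apart on the scale of log2(TPM + 1), 13 higher in replicate 1 and 36 in replicate 2. Epithelial and oocyte genes were both among those higher in replicate 2. Krt19 was at 37 and 127 TPM, Aqp3, a water and glycerol channel, at 45.1 and 134 TPM, Nlrp14 at 153 and 523 TPM, Plk1, the mitotic kinase, at 26.1 and 86 TPM, and Oas1d, an oocyte gene of the 2-5A synthetase family, at 51.3 and 146 TPM in replicates 1 and 2. Leng8, at 84.1 and 27.5 TPM, and Rnu1a1, a U1 gene, at 107 and 30.4 TPM, were higher in replicate 1. At day 21 Krt19 was listed at 0, Aqp3 was at 0, 2.77 and 0 TPM, Plk1 at 242, 232 and 286 TPM and Oas1d at 393, 468 and 471 TPM, so these days did not overlap despite the gap between the day 7 libraries. Both day 7 libraries listed 49 of the named genes at 0, and all 3 day 21 libraries listed 66 at 0.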

How the data were processed

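RNA from pooled mini-oocytes was amplified with a stranded SMART-seq kit and sequenced on NovaSeq instruments of different models and read lengths. Which library ran on which is not given in the sources used here. Whether read length differed between the days is therefore unknown, and its part in the differences was not tested. The authors used Trim Galore for trimming, Hisat2 for alignment (mm10) and Bedtools to take out ribosomal RNA, kept unique reads, assigned them to GENCODE vM25 genes with featureCounts (fractional, overlaps allowed, no strand option stated) and deposited TPM from exon reads. Overlapping or antisense genes can share reads.

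Differences were taken as log2(TPM + 1), day 21 minus day 7, by limma, version 3.58.1 (R 4.3.3), with a variance trend, over all 7 libraries in 3 groups. Genes with at least 1 TPM in 2 libraries were tested and Benjamini-Hochberg adjusted, and the threshold was FDR 0.05. A difference on this scale understates the change of low genes. Exon lengths and coordinates came from a GENCODE annotation of mm10 older than vM25, and reads were estimated from TPM, exon length and the smallest steps. The test was also run on simulated data with few changed genes and a fixed spread. The simulation held neither the shift in composition nor the unequal pools of the real samples, so it gives no assurance for those. Of the named genes, 18 had under 10 estimated reads on average.

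Genes were named from sets chosen by rule, and some genes of these sets are not named. The sets were the 15 largest called rises and falls without overlap that averaged 10 TPM or more on the higher day. Others were the 10 highest on each day, the 10 largest gains and losses in TPM and the 5 highest with an interval within 0.5 of 0. Further sets were the 10 largest gaps between day 7 libraries and 5 markers. Each list was to give 2 to 6 genes, and some gave fewer or more. The members, lists and families were chosen with earlier results of these data known. Alternatives were other pseudocounts, filters, scalings, tests, samples, a replicate block and each library left out. Some results are not reported here.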

Additional observations from a re-analysis of the deposited data

How the results depend on the processing

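Of 5634 calls among the named genes (4054 higher, 1580 lower), the direction split moved most with the scaling. Voom on estimated reads gave 2371 higher and 3233 lower named genes, and 3349 higher and 5583 lower over all genes. The count of lower named genes was 2383 with quantile normalization and 2695 with voom and median-of-ratios library sizes, the last chosen after seeing the data, as was the rescaling over genes of at least 300 bases. The cause was not tested. With single libraries left out, calls ran from 4726 to 5273 among named genes, 3603 to 3831 higher and 1036 to 1519 lower, and from 7314 to 8320 over all genes, 4744 to 5306 higher and 2500 to 3136 lower. The lowest count of lower named genes, 1036, was without replicate 1 of day 7.

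For the 2 replicate numbers shared by both days, correlations of deviations were 0.011 and -0.009. With 2 libraries at day 7 their deviations mirror each other, so these values cannot tell whether the samples were paired. The fit with the replicate block called 3396 named genes higher and 1243 lower.

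Differences that turned sign were small. With quantile normalization they were 0.564 for Dppa3, -0.586 for Itpr1, -0.159 for Pabpc4, -0.220 for Pkm, -0.491 for Tjp1 and -0.466 for Tubb5. With voom they were -0.485 for Itpr1, -0.391 for Lamp1, -0.143 for Pabpc4, -0.138 for Pkm, -0.370 for Psip1, -0.421 for Tjp1 and -0.388 for Tubb5, and with voom and median-of-ratios sizes -0.299 for Itpr1. Calls of Ago2, Bmpr1a, Cyc1, Psmd14, Stag3 and Tut4 were lost without replicate 1 of day 7, those of Rad54l and Tuba1b without replicate 2, those of Dppa4, Idh2 and Rfc4 without either, and that of Cdkn1a without replicate 2 of day 7 or replicate 1 of day 21. Calls of Gpat2, Gpr3, Hmmr, Pabpc4, Rnu1a1 and Tbpl2 were lost under several of these settings. At about 3 reads on 1 kb, levels under 0.575 to 0.764 TPM cannot be told from 0.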
